A study of Caenorhabditis elegans with 2 samples.

Results

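Autosomal intronic peaks are entries of a CEH-16 peak list on chromosomes I to V, with summits inside protein-coding genes but outside exons. They were taken from the list that the authors called on pooled replicates, on the ce11 assembly. That list is labelled as peaks and background, given as input to the authors' reproducibility step. Membership alone therefore does not mark a site of CEH-16 binding. A peak was a member when its summit lay inside a protein-coding gene of Ensembl release 115 but in no exon of any protein-coding transcript, and when it was on neither X nor the mitochondrial genome. The rule selected 8418 of 30000 pooled peaks, which is 34.8% of the 24218 autosomal ones. The other 15800 autosomal peaks lay between genes (9826), in coding sequence (4365) or in untranslated exons (1609). Of the 8418, 8284 lay inside 1 host gene and 134 inside 2 or more overlapping genes, and all were counted once. For 48 of the 8418, no intron of the host's annotated protein-coding transcripts held the summit.

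The study ran ChIP-seq for CEH-16 on Caenorhabditis elegans at the L3 larval stage, in 2 biological replicates of a single group, so it holds no contrast between conditions. Both replicates came from strain OP82, genotype unc-119(tm4063) III; wgIs82, a transgenic line that stably expresses CEH-16 with a C-terminal fusion of GFP and FLAG. Chromatin came from whole worms of both sexes. A peak therefore pools all cells that carry the tagged protein, and the cells in which it was bound cannot be told apart. The replicate 1 list held 19150 peaks, and the replicate 2 and pooled lists both stop at exactly 30000. A separate list of 214 peaks passed the authors' reproducibility threshold. Its members are the top of the pooled list by signal, the lowest at 43.6 and the first one outside at 43.5. Signal here means the number that the authors' files give for a peak, on a scale that is not stated. Without read counts in the lists, sequencing depth is unknown.

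CEH-16 is the worm homologue of engrailed, a homeodomain transcription factor. It is known for its role in the seam cells of the lateral epidermis, where it keeps cells from fusing with their neighbours and acts with the GATA factor genes egl-18 and elt-6. Engrailed-type homeodomains bind short A and T rich sites around a TAAT core. Most worm introns are very short, and the longer ones, often near the 5′ end of a gene, are known to hold enhancers, alternative promoters and small RNA genes such as those of snoRNAs and tRNAs.

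At the strongest members the sequence was less rich in A and T than introns as a whole, as their windows show. The 6 sequences that follow run from 50 bases before to 50 bases after the summits of strong members whose windows touch no small RNA gene, read from the plus strand of the reference (WBcel235, the assembly also called ce11). They are shown because they are the strongest such members on chromosomes II to V. Capitals mark matches on either strand to short words. The word TAATTA and its variant TAATTG are homeodomain cores of engrailed type, and GAGAGA is a repeat of G and A. The word CGCGCA and its relative GCGCGC are rich in G and C. The word AATATT and likewise TTTAAA hold neither G nor C. The E-box CACGTG was added after the sequences were read. Words may overlap, and some of their matches do.
dhgd-1, chrII:11547405-11547505: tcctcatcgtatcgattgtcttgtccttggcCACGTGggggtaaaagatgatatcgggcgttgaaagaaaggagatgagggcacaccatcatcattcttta
Y111B2A.12, chrIII:12612618-12612718: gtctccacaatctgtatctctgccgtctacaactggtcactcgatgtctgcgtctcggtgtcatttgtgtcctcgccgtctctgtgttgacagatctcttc
T28B11.1, chrV:10715937-10716037: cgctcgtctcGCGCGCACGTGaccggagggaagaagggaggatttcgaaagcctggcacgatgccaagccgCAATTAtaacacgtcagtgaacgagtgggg
W06H8.6, chrV:6224550-6224650: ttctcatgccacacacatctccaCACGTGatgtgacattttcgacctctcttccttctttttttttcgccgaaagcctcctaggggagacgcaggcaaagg
elt-1, chrIV:9615583-9615683: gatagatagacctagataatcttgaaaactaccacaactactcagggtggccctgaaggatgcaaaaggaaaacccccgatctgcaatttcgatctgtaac
pqn-41, chrIII:1923634-1923734: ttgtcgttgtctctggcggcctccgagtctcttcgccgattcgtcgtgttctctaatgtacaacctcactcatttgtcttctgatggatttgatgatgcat

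None of these 6 windows holds TAATTA. The homeodomain variant TAATTG is found in 1 of them, that of T28B11.1, where the E-box overlaps a run of both G and C rich words. The E-box, a word chosen after the sequences were read, is in 3 of the 6, in dhgd-1, T28B11.1 and W06H8.6.

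A second set of strong members lay on or beside small RNA genes that sit in the same introns. In the 6 windows that follow, capitals mark the bases of the small RNA gene, and the summit falls inside that gene or within 20 bp of it. The window of F58G1.7 also meets this rule but is not shown. It lies wholly inside the snRNA gene sup-6.
dhc-4, snRNA R07E5.16, chrIII:10989609-10989709: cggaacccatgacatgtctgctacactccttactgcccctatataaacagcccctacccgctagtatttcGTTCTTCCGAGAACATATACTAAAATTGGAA
pxn-1, snoRNA ZK994.7, chrV:8500519-8500619: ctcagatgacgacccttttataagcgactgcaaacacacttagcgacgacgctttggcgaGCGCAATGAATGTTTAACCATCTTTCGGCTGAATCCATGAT
frm-7, snoRNA C51F7.4, chrV:12303574-12303674: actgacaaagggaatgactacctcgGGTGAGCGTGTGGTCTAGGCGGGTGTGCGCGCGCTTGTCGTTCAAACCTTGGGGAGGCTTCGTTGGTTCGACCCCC
rsa-2, tRNA WBGene00014553, chrIII:11066824-11066924: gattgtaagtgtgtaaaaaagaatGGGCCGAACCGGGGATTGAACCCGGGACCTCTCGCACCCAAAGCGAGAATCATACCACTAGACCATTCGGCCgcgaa
W03C9.6, tRNA WBGene00014539, chrII:11959327-11959427: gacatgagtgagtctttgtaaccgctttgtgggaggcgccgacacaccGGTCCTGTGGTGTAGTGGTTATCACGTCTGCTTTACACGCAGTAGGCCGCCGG
C06B8.7, tRNA WBGene00011346, chrV:15505213-15505313: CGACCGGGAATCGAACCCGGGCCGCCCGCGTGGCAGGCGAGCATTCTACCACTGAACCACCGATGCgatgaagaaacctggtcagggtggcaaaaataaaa

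For the tRNA of rsa-2 the whole gene lies in the window, and for the snRNA of dhc-4 and the snoRNA of pxn-1 the summit lies just outside the gene, at 20 bp and 10 bp.

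Only 34 of the 8418 intronic peaks were in the thresholded list, in 31 host genes. This is 0.404% (exact 95% interval 0.280 to 0.564), against 0.603% of all autosomal pooled peaks. Since the thresholded list is a cut in the pooled signal, the 34 are the intronic peaks of highest signal, from 43.6 to 92.4 with a median of 49.7. Every one had a summit within 200 bp in the replicate 1 list and in the replicate 2 list. A list thresholded for reproducibility between the replicates selects for such support, and the other 112 autosomal peaks in it had it too. In 22 of the 34, both replicate summits lay within 50 bp of the pooled one, and 24 were among the 1000 strongest peaks of both lists. Replicate 1 signals ran from 8.74 to 50.3 (median 21.8) and replicate 2 signals from 12.9 to 46.1 (median 31.1), on scales that are not stated to be the same. The pooled signal also draws on both replicates.

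The highest intronic signal lay in T28F4.1 on chromosome I (summit 7475296), in the first of its 3 introns, which is 2655 bp long. It stood at 92.4 in the pooled list, 50.3 in replicate 1 and 38.6 in replicate 2, and ranked 41 in the whole pooled list. The next lay in dhgd-1, which encodes D-2-hydroxyglutarate dehydrogenase, on chromosome II (summit 11547455) at 80.9, with 41.6 in replicate 1 and 46.1 in replicate 2. It is in the first intron of dhgd-1, of 11330 bp, but only 62 bp upstream of the start of another gene, F54D5.7. The same long intron held a second thresholded peak at 49.9, with 8.76 in replicate 1 and 37.3 in replicate 2, which lay 223 bp upstream of dnj-13, a gene for a DnaJ (HSP40) cochaperone. Both dhgd-1 peaks are thus intronic by position and close upstream of genes that start inside the intron. Of the 34 members, 14 lay within 1000 bp of a protein-coding transcript start, 9 of them upstream of it, and for 3 the start belonged to another gene than the host.

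Y111B2A.12 on chromosome III had a summit at 12612668 in its intron 4, of 7076 bp, with 76.5 in the pooled list, 46.1 in replicate 1 and 33.1 in replicate 2. No protein-coding start lay within 1000 bp of it. let-526, which encodes an ARID subunit of the SWI/SNF chromatin remodelling complex, had 2 thresholded peaks on chromosome I. Its stronger peak (summit 5316384) stood at 72.9, with 39.1 in replicate 1 and 35.4 in replicate 2, and lay in the first intron of an isoform other than the one of longest coding sequence. Its second peak, in intron 3, stood at 54.6, with 21.0 in replicate 1 and 32.3 in replicate 2. Another remodelling gene, pbrm-1, a polybromo homologue, held the weakest member, at 43.6. unc-108, which encodes the small GTPase Rab2, had its peak in intron 1 on chromosome I (summit 3824480) at 68.1, with 25.3 in replicate 1 and 40.9 in replicate 2. T28B11.1 on chromosome V (summit 10715987) had 65.5 in the pooled list, 43.0 in replicate 1 and 34.1 in replicate 2, and its first intron is 17091 bp long. The order of the members differed between replicates: T28F4.1 was higher than dhgd-1 in replicate 1 and lower in replicate 2.

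Among the thresholded members was elt-1, the gene of a GATA factor that specifies epidermal fate in the embryo. Its peak on chromosome IV (summit 9615633) lay in intron 2 of 7, an intron of 629 bp, and 357 bp upstream of an alternative start of elt-1 itself. It stood at 54.9 in the pooled list, 19.0 in replicate 1 and 33.4 in replicate 2. Of the other genes that CEH-16 biology points to, ceh-16 and elt-6 held no intronic peak, and nhr-25, on X, was outside the rule. egl-18 held 4 on chromosome IV, the strongest at 18.4 and matched in neither replicate list. eff-1, the fusogen gene that CEH-16 is known to keep off in seam cells, held 1 peak in intron 7 on chromosome II at 16.8, matched in replicate 2 at 11.0 and not in replicate 1. The peaks of egl-18 and eff-1 were thus among the many of modest signal, and none was supported by both replicates.

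W06H8.6 on chromosome V held 2 thresholded peaks in its last intron, of 542 bp. The stronger (summit 6224600) stood at 57.7, with 26.7 in replicate 1 and 31.4 in replicate 2, and the weaker (summit 6224801) at 43.7, with 19.0 in replicate 2. Both were matched to the same replicate 1 peak, so they count as a single region there. pqn-41, which encodes a glutamine-rich protein needed for linker cell death, had 54.7 in the pooled list, 22.1 in replicate 1 and 31.7 in replicate 2. Y40C5A.4 on chromosome IV also had 54.7, with 24.5 in replicate 1 and 29.6 in replicate 2. As plain differences of values, on scales not stated to be the same, ell-1 had the widest gap between the replicate lists. It stood at 54.6 in the pooled list, 11.5 in replicate 1 and 43.8 in replicate 2. The widest gap in the other direction was in unc-41, the gene of a stonin needed for synaptic vesicle recycling, at 44.99 in the pooled list, 31.8 in replicate 1 and 12.9 in replicate 2. Replicate 2 had the higher value of the pair in 24 of the 34 members. Its values were also higher over all intronic peaks of each list, with a median of 10.7 against 7.84 in replicate 1.

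The other thresholded members ranged from 43.7 to 51.3 in pooled signal. They include frm-7, a FERM domain gene (51.3), twk-5, of the TWK potassium channel family (50.7), and vab-10, which encodes the spectraplakin that anchors the epidermis to muscle and cuticle (49.4). unc-43, the gene of calcium/calmodulin-dependent kinase II, had 46.4. Others were rsa-2, a spindle assembly gene (48.1), larp-1, a La-related protein gene (45.4), tent-5, a poly(A) polymerase gene (45.4), mdt-26, of Mediator (44.1), scc-2, the cohesin loader (44.1), and ppfr-1, a phosphatase 4 regulatory subunit gene (43.8). F58G1.7 (47.8), T26A8.4 (47.0), enri-1 (46.4), C08D8.1 (44.6), W03C9.6 (43.7) and C06B8.7 (43.7) complete the set. dhc-4, a dynein heavy chain gene, and pxn-1, a peroxidasin gene, stood higher, at 61.6 and 59.6. Their replicate values were 28.3 and 35.7 for dhc-4 and 20.7 and 36.2 for pxn-1, replicate 1 before replicate 2.

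**Figure D1:**
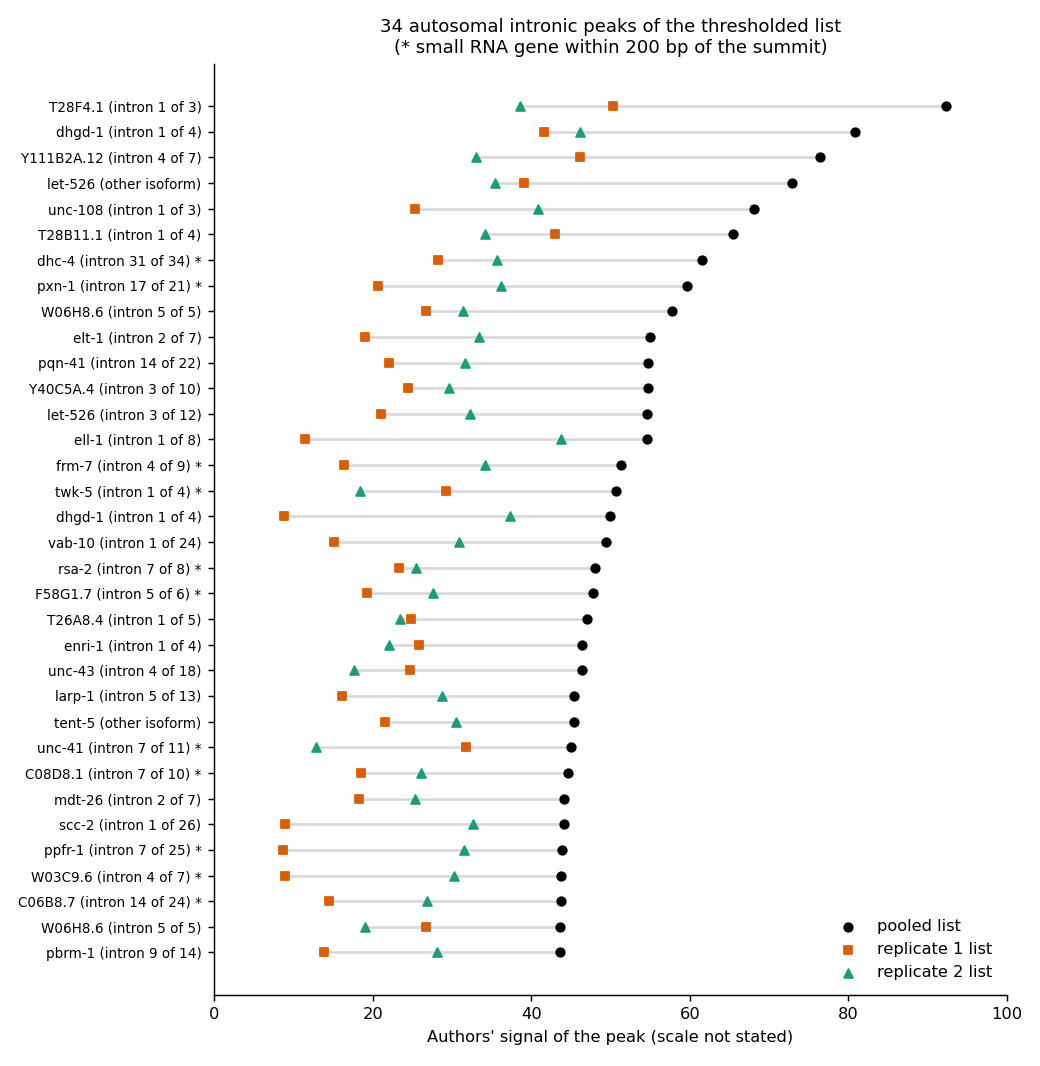
Signal of the 34 thresholded autosomal intronic peaks, with the authors' value for the peak on the horizontal axis and the host gene and intron on the vertical axis; circles are the pooled list, squares replicate 1 and triangles replicate 2, and the grey line joins the lowest and the pooled value. Pooled values run from 43.6 to 92.4, and 11 members carry an asterisk for a small RNA gene within 200 bp. Replicate 2 has the higher value in 24 of 34, on scales not stated to be the same.

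Small RNA genes lay beside many of the strongest intronic peaks and beside few of the weak ones. Of the 34 thresholded members, 11 had a summit within 200 bp of a snoRNA (5), tRNA (3), snRNA (2) or miRNA (1) gene. This is 32.4% (exact 95% interval 17.4 to 50.5), against 1.55% of the 8384 intronic peaks outside the thresholded list. Along the pooled ranking the intronic share was 12.4% at ranks 215 to 1000, 2.56% at ranks 1001 to 5000 and 1.13% beyond. Among other autosomal peaks in the thresholded list it was 17 of 112, or 15.2%. No test was made of these shares, since the comparison was chosen with the values known.

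The 11 members beside small RNA genes were in dhc-4, pxn-1, frm-7, twk-5, rsa-2, F58G1.7, unc-41, C08D8.1, ppfr-1, W03C9.6 and C06B8.7. In ppfr-1 the neighbour was mir-71, at 116 bp. Their host introns were short, with a median of 326 bp, against 2415 bp for 21 of the 23 members away from small RNA genes. The other two, in let-526 and tent-5, lie outside the introns of the longest-coding transcript and have no length here. Their pooled signal had a median of 47.8, against 54.6. Only 1 of the 11 thresholded peaks in first introns had such a neighbour, against 10 of 21 in later introns. The exact intervals of these shares overlapped, at 0.230% to 41.3% for first introns and 25.7% to 70.2% for later ones. Among intronic peaks of any signal, later introns also had the higher share. It was 2.08% (123 of 5923), against 0.840% (18 of 2143) in first introns. Over all 8418 intronic peaks, 141 lay beside a small RNA gene, and 41.8% of these were supported by both replicates, against 17.8% of the 8277 that did not. Within the 141, the median signal was 20.9 beside snoRNA genes (45 peaks), 19.9 beside snRNA genes (18), 17.9 beside tRNA genes (62) and 13.8 beside miRNA genes (16), against 14.9 away from all of them. Whether the small RNA gene or the host intron accounts for these peaks was not tested.

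The strongest intronic peaks differed in base composition from the other intronic peaks. GC content in the window of 50 bases to either side of the summit averaged 49.4% ± 7.39 in the 34 thresholded members and 33.1% ± 7.53 in the other 8384 (SD over peaks). Intron sequence as a whole had 32.6% GC in first introns and 32.1% in later ones, so the weaker peaks sat at about the composition of introns. The change along the ranking was gradual: 39.6% at ranks 215 to 1000, 34.6% at ranks 1001 to 5000 and 32.4% at ranks 15001 to 30000. Repeat-masked bases made up 7.92% of the windows of thresholded members and 45.5% of the other intronic windows. Over intron sequence as a whole they made up 48.2% in first introns and 54.2% in later ones. Windows masked throughout were 0 of 34 and 339 of 8384 (4.04%). Members beside small RNA genes averaged 51.6% GC and those away from them 48.4%, so both kinds were above the other intronic peaks.

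The replicates gave the same picture when ranked by their own signals. Of the 214 strongest peaks of the whole replicate 1 list, 40 were autosomal intronic, with a mean GC of 46.2%, against 34.6% in the other 5043 intronic peaks of that list. In replicate 2 there were 30, with 46.1%, against 32.9% in the other 8271. Small RNA genes lay beside 7 of the 40 in replicate 1 and 6 of the 30 in replicate 2, against 2.14% and 1.27% of the others. The rise in GC with signal was not particular to introns: other autosomal peaks had 47.2% ± 8.56 in the thresholded list and 34.8% ± 7.83 at ranks 15001 to 30000.

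**Figure D2:**
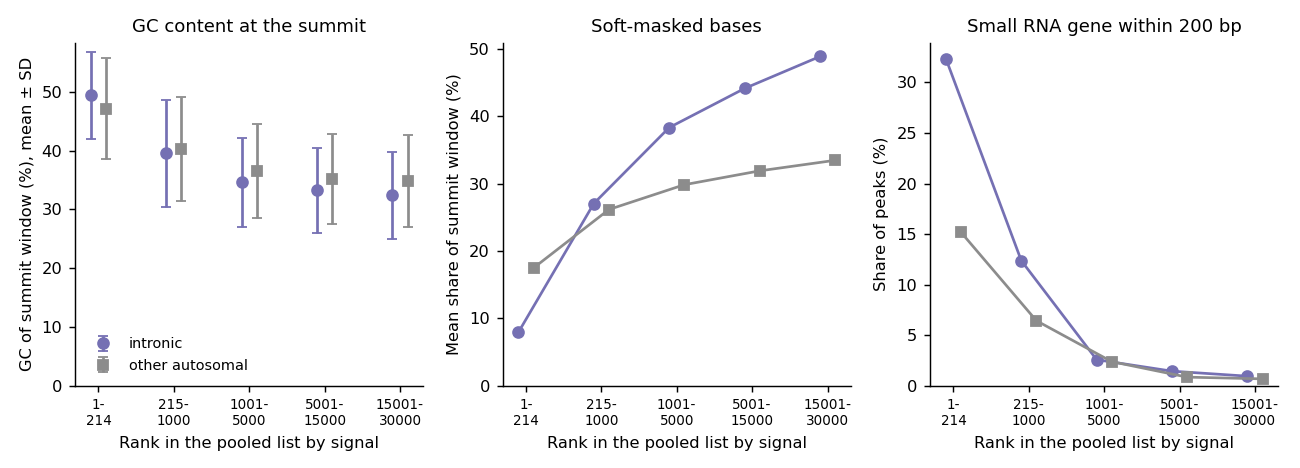
Intronic peaks (circles) and other autosomal peaks (squares) in bands of pooled rank on the horizontal axis. The panels show mean GC of the summit window (50 bases to either side) with its SD over peaks, the mean share of repeat-masked bases, and the share of peaks within 200 bp of a small RNA gene; in intronic peaks these run from 49.4% to 32.4%, 7.92% to 48.9% and 32.4% to 0.935% from the strongest band to the weakest.

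Counts of the 2 engrailed-type words at the strongest members were small, and no difference in word counts was tested. TAATTA occurred in 0 of 34 windows, against 5.64% of the other intronic windows. TAATTG occurred in 4 of 34 (11.8%), against 8.97%, and all 4 were among the 23 members away from small RNA genes. GAGAGA was in 8 of 34, against 5.56%, and all 8 were among the 23 members away from small RNA genes. CGCGCA was in 6 (17.6%) and GCGCGC in 5 (14.7%) of 34, against 1.73% and 0.811%. CACGTG, the word added after sequences of members were read, was in 4 of 34, against 1.40%. Its count is therefore not independent of its choice. AATATT and TTTAAA, words without G or C, were in 0 of 34, against 13.3% and 21.7%. Of all 112 other autosomal peaks in the thresholded list, 2 held TAATTA (1.79%), 9 TAATTG (8.04%), 22 GAGAGA (19.6%) and 1 CACGTG (0.893%). In the same 112, CGCGCA and GCGCGC were each in 14 (12.5%), AATATT in 1 and TTTAAA in 8. The G and C rich words were thus not particular to intronic members of the thresholded list. Thresholded intronic windows were also richer in G and C, at 49.4% against 33.1% in the other intronic windows. A match describes letters in a window and was not tested as a binding site.

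Intronic peaks were less often in the thresholded list than the remaining autosomal peaks, and more often than peaks in coding sequence. The share was 0.404% of intronic peaks against 0.709% of the other autosomal peaks (112 of 15800), with an adjusted p of 0.00399 by Fisher's exact test. By the same exact test it differed from intergenic peaks, at 1.02% (100 of 9826, adjusted p = 3.28e-06), and from coding-sequence peaks, at 0.0916% (4 of 4365, adjusted p = 0.00259). Per Mb of sequence this gave 1.22 thresholded peaks in introns, 3.38 between genes and 0.189 in coding sequence. All p-values of this kind are two-sided and adjusted by the Benjamini-Hochberg method over 8 tests, or over 4 where only 1 of both measures applies (single replicates and bands of pooled rank). They treat peaks as independent, although all come from the same 2 libraries and 596 of the intronic peaks overlap another one.

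The lower share of intronic peaks was not seen away from gene starts. Among peaks within 1000 bp of a protein-coding start, 0.361% of intronic and 1.16% of other autosomal peaks were in the thresholded list. That contrast was not tested, nor was whether starts account for the lower share. Farther away, the order turned, at 0.440% of intronic (20 of 4543) and 0.282% of other autosomal peaks (23 of 8159), with an adjusted p of 0.244. Against intergenic peaks away from starts (0.359%) the adjusted p was 0.604. The call against other autosomal peaks was also lost when the 214 strongest peaks of replicate 1 took the place of the thresholded list (0.787% of intronic and 1.06% of other peaks, adjusted p = 0.116, exact test). The call against coding sequence was lost with replicate 2 alone (0.361% and 0.198%, adjusted p = 0.131, exact test).

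**Figure D3:**
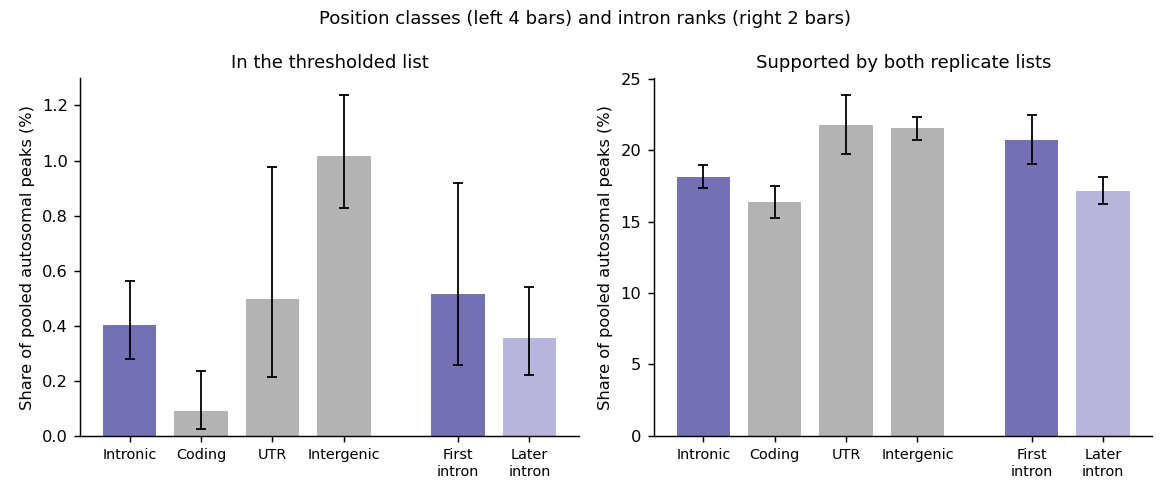
Share of pooled autosomal peaks in the thresholded list (left panel) and with a summit within 200 bp in both replicate lists (right panel), for 4 position classes and for first and later introns; bars start at 0 and error bars are exact 95% intervals that cover counting of peaks only. Intronic peaks stand above coding and below intergenic peaks in both panels, at 0.404% and 18.2%.

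The bulk of the intronic peaks was weak and close in signal to peaks elsewhere. The middle 50% of pooled signals ran from 12.99 to 18.04 around a median of 14.9, and the median of the other autosomal peaks was 15.2. In the replicate lists, peaks placed in introns by the same rule had medians of 7.84 in replicate 1 and 10.7 in replicate 2, against 7.99 and 10.9 for the other autosomal peaks. The intronic median was therefore the lower in all 3 lists, with a difference of -0.284 in the pooled list, -0.148 in replicate 1 and -0.246 in replicate 2. Introns took 32.9% of autosomal peaks in the replicate 1 list and 34.3% in replicate 2. They make up 33.8% of the autosomes, so intronic peaks were about as dense as the genome as a whole, at 302 per Mb against 293. Coding sequence held 206 per Mb, intergenic sequence 332 and untranslated exons 408.

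Support from replicates was partial. Of the 8418 intronic peaks, 1529 (18.2%, exact 95% interval 17.3 to 19.0) had a summit within 200 bp in both replicate lists, against 19.5% of all autosomal peaks. A match in replicate 2 only was found for 47.8%, in replicate 1 only for 17.4%, and in neither list for 16.6%. The higher share in replicate 2 goes with its longer list. Other autosomal peaks were supported by both in 20.1% (3182 of 15800, adjusted p = 0.000577 by Fisher's exact test), intergenic peaks in 21.5% (adjusted p = 9.43e-08) and coding-sequence peaks in 16.4% (adjusted p = 0.0142). Across the 1529 supported intronic peaks, Spearman's rho between the replicate signals was 0.16, against 0.24 in the 3182 other supported peaks, as a description across peaks that share their libraries. Among those others it was 0.14 in coding-sequence peaks (715) and 0.28 in intergenic peaks (2117), so a low value was not particular to introns.

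These differences in support were small beside those between ranks. All 34 intronic peaks in ranks 1 to 214 were supported by both, 88.7% of 186 at ranks 215 to 1000, 56.3% of 1014 at ranks 1001 to 5000, 21.9% of 2797 at ranks 5001 to 15000 and 3.33% of 4387 beyond. The other autosomal peaks had 100%, 82.7%, 56.0%, 21.7% and 4.12% in the same bands. At ranks 215 to 5000 the share was 61.3% of intronic and 60.6% of other peaks (exact test, adjusted p = 0.743), and at ranks 5001 to 15000 the intronic share was again the higher by 0.258 percentage points (adjusted p = 0.851). In the weakest band it was lower, with an adjusted p of 0.122. Within these 3 tested bands no difference from the other autosomal or from intergenic peaks passed the exact test (adjusted p from 0.122 to 0.851). Ranks 215 to 1000, where the gap from other autosomal peaks was widest, were not tested alone. Against coding-sequence peaks the difference was wider at ranks 215 to 5000, at 61.3% of intronic and 51.9% of coding peaks (exact test, adjusted p = 0.000709), and it did not pass in the 2 weaker bands.

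**Figure D4:**
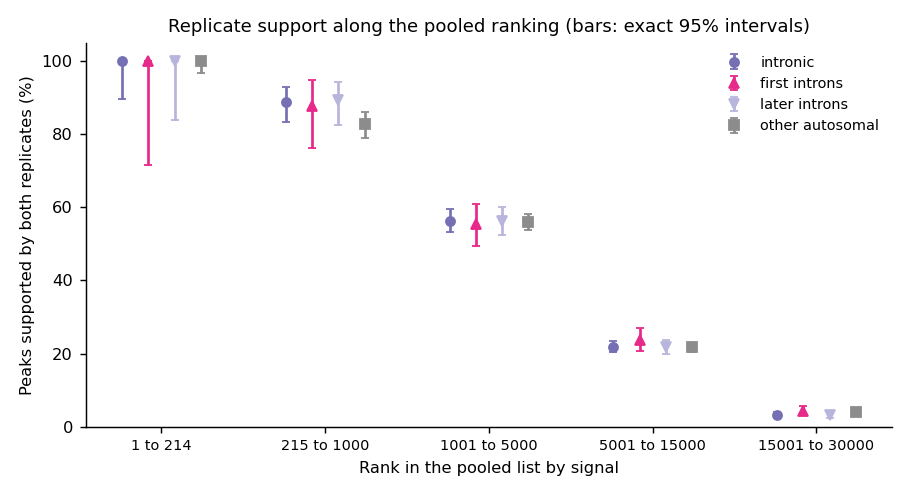
Share of peaks supported by both replicate lists in 5 bands of pooled rank (horizontal axis), for all intronic peaks, first introns, later introns and other autosomal peaks; error bars are exact 95% intervals. Support runs from 100% to 3.33% in intronic peaks. The 4 groups lie close together except at ranks 215 to 1000, where intronic peaks have 88.7% and other autosomal peaks 82.7%.

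Over introns of all lengths, peaks in first introns had slightly higher signal than those in later ones. On the transcript of longest coding sequence, 2143 members lay in the first intron (25.5%) and 5923 in a later one (70.4%). The remaining 352 lay outside that transcript's introns, 304 of them in an intron of another transcript. The median pooled signal was 15.2 in first introns and 14.7 in later ones, a difference of 0.498 (0.221 in replicate 1 and 0.344 in replicate 2). First introns held 333 peaks per Mb and later introns 288, a ratio of 1.15. The ratio was 1.19 in the replicate 1 list and 1.15 in replicate 2, and it was above 1 on each of the 5 autosomes, from 1.03 on II to 1.31 on I. No test was made of this ratio.

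Replicate support was higher in first introns, and presence in the thresholded list could not be told apart. Both replicates supported 20.7% of peaks in first introns (444) and 17.2% in later introns (1017), with an adjusted p of 0.000631 by Fisher's exact test. The share in the thresholded list was 0.513% in first introns (11 peaks) and 0.355% in later ones (21), with an adjusted p of 0.319. Without peaks beside small RNA genes the difference was larger, at 0.471% of first-intron and 0.190% of later-intron peaks (exact test, adjusted p = 0.0452). Away from gene starts it turned, at 0.341% and 0.451% (exact test, adjusted p = 1.00). The higher support in first introns also lost its call within each rank band (exact tests, adjusted p from 0.123 to 0.851) and in introns of at least 1000 bp (21.0% and 18.5%, adjusted p = 0.103).

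Later introns were close to each other in signal and support. The median signal was 14.8 in intron 2 (1348 peaks), 14.8 in intron 3 (1029), 14.7 in introns 4 to 6 (1944) and 14.7 from intron 7 on (1602). Support by both replicates was 17.7%, 16.2%, 16.7% and 17.9% in the same order, each below the 20.7% of first introns. The share in the thresholded list was 0.148%, 0.194%, 0.412% and 0.562% in that order, on 2, 2, 8 and 9 peaks, the last above the 0.513% of first introns.

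Intron length and distance to the start differed with intron number. Taken over peaks, so that an intron with several peaks counts several times, the median length of the intron was 1188 bp for peaks in first introns and 733 bp for peaks in later ones. Over all first and all later introns, with or without a peak, the medians were 83 and 62 bp. Within 1000 bp of a protein-coding start lay 72.7% of first-intron peaks and 36.4% of later-intron peaks. In introns of at least 1000 bp, summits were spread over the whole length, with a median position at 0.518 of the intron in first introns and 0.523 in later ones. By length, the density of first and later introns was close in introns under 350 bp, at 317 and 312 peaks per Mb, and furthest apart in introns of 1000 to under 5000 bp, at 304 and 220. In introns of 350 to under 1000 bp it was 329 and 298, and in those of 5000 bp and more 323 and 286. In these longest introns the order of signal and support turned: the median signal was 15.3 in first introns and 15.7 in later ones, and both replicates supported 19.4% of first-intron peaks (81 of 417) and 25.04% of later-intron peaks (156 of 623). This difference was not tested. These densities are per Mb of annotated intron, including stretches that are exons in other transcripts.

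**Figure D5:**
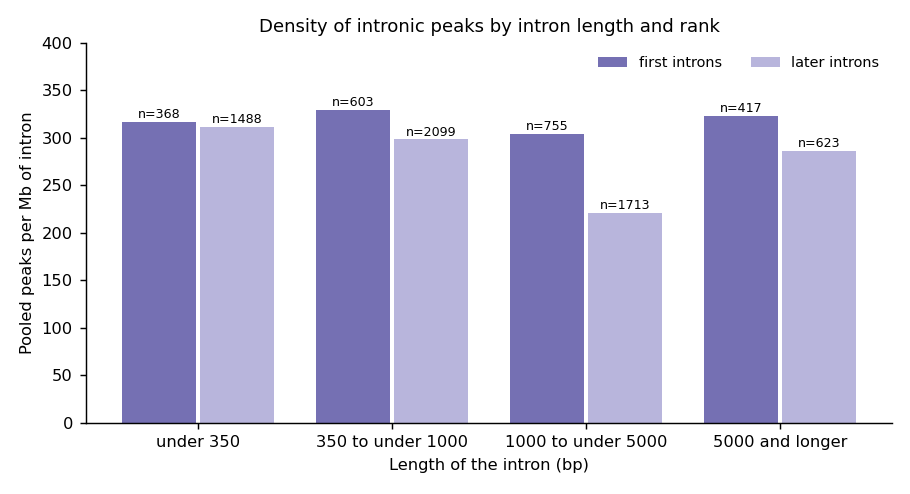
Pooled intronic peaks per Mb of intron (vertical axis, from 0) by intron length (horizontal axis), for first introns (dark) and later introns (light), with the number of peaks above each bar. First introns are the denser in all 4 length classes, from 317 against 312 per Mb in the shortest to 304 against 220 per Mb in introns of 1000 to under 5000 bp.

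The 8418 peaks were spread over 4750 host genes, or 28.5% of the 16651 autosomal protein-coding genes with an intron. A single peak was found in 3132 hosts, 2 to 4 in 1361, 5 to 9 in 210 and 10 or more in 47, and these last 47 held 585 peaks. Intron sequence per gene was summed over the transcript of longest coding sequence only, while peaks were counted over the whole gene. By this sum, host genes had a median of 2103 bp of intron, against 502 bp in genes without a peak. Peaks per host followed the same sum, with a Spearman rho of 0.56 across the 4750 hosts. The fullest host was kin-1, which encodes the catalytic subunit of protein kinase A, with 23 peaks, of which 12 lay in its intron 4 of 21230 bp. None of its peaks was in the thresholded list, the strongest stood at 21.8, and 4 of 23 were supported by both replicates. gcn-1, a homologue of the translation regulator GCN1, held 21 peaks (strongest 22.9, 4 supported by both). lmd-3, an OXR1 homologue, had 16 (strongest 27.8, 5 supported by both), as had hlh-30, egl-4 and pde-3. Of the 47 hosts with 10 or more peaks, 5 held a thresholded peak (ppfr-1, let-526, vab-10, unc-43 and tent-5), and 6 of their 585 peaks were in the thresholded list.

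Regulators and neuronal genes of the kinds studied beside CEH-16 were often hosts, and they hold much intron sequence per gene. Of 18 autosomal seam and epidermal regulators with an intron, 12 held an intronic peak, of 26 Wnt pathway genes 19, and of 18 cell fusion and junction genes 13. Their medians of intron sequence, summed over the longest-coding transcript of each gene, were 2133, 1929 and 3868 bp. Over all 16651 genes it was 725 bp, and 28.5% of these genes were hosts. Among the seam and epidermal genes, unc-62, a Meis-type homeodomain gene, followed elt-1 at 37.1 (8.58 in replicate 1 and 26.5 in replicate 2). nhr-23, the nuclear receptor gene that drives moulting, had 32.8 (20.4 in replicate 1 and 15.3 in replicate 2). Both of these peaks were in first introns and in both replicate lists. In the Wnt pathway the highest values were modest: lit-1, the Nemo-like kinase gene, had 22.9 and no replicate 1 match, hmp-2, a beta-catenin gene, 21.5 and no replicate 2 match, and mom-4, the kinase gene upstream of lit-1, 20.3 with matches in both. In the fusion and junction list, hmr-1, the classical cadherin gene, held 12 peaks, the strongest at 41.9 in intron 21 with 13.8 in replicate 1 and 30.4 in replicate 2, just under the threshold.

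The wider lists showed the same spread. Hosts made up 21 of 43 homeobox genes, 41 of 54 other transcription factors, 23 of 32 nuclear hormone receptors and 11 of 12 heterochronic genes. They were 30 of 41 ion channel genes, 20 of 34 synaptic genes, 26 of 32 axon guidance genes and 16 of 24 muscle genes. Axon guidance genes had the highest median of intron sequence per gene by the same sum, 8301 bp, and homeobox genes the lowest, 1903 bp. Peaks close under the threshold were those of dys-1, the dystrophin gene (43.4), nhr-19 (43.1) and ain-2, a GW182 homologue of the miRNA pathway (40.3). Of these, dys-1 had 18.01 in replicate 1 and 24.03 in replicate 2, nhr-19 had 14.9 and 25.9, and ain-2 had 10.5 and 32.3.

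Further down, the heterochronic genes sea-2 and lin-28, a regulator of larval timing, had 36.4 and 33.3, and lin-28 had no replicate 2 match. nhr-49, a regulator of fat metabolism, had 34.2 with no replicate 1 match, and nhr-41 had 33.4. Of the other transcription factors, skn-1, of the oxidative stress response, had 33.3, daf-16, the FOXO gene, 30.2 with 12 peaks in all, and egl-27 29.8. The homeobox genes ceh-27 and lin-11 had 30.8 and 29.0. The ephrin receptor gene vab-1 and the calsyntenin gene casy-1 had 31.4 and 30.7. Channel genes were lower, with glr-2, a glutamate receptor gene, at 29.5, clh-1, a chloride channel gene, at 25.4 and shl-1, a potassium channel gene, at 23.3. The synaptic genes rab-3 and ric-4, which encodes SNAP-25, had 26.0 and 25.3, and the muscle genes ttn-1 and unc-22, which encode a titin homologue and twitchin, 25.8 and 20.9. Beyond elt-1, vab-10 and unc-43, no member of the 11 lists held a thresholded intronic peak. The shares of hosts are descriptions that were not adjusted for intron sequence.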

How the data were processed

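The authors deposited peak lists called per replicate and on both replicates pooled (2 biological replicates, 1 group), plus a list thresholded by irreproducible discovery rate. The pooled list is labelled as peaks and background, the input to that threshold. Column 7, the signal of each peak, is the authors' deposited value, whose scale is not stated. Per the labels, chromatin was sonicated and the builds are ce10 and ce11. Only ce11 was used. The aligner and peak caller are not given in the sources used here, and no control was analysed here. Autosomal peaks are 350 bp wide.

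Summits were placed on Ensembl release 115 genes. Introns were numbered, and their lengths summed per gene, on the transcript of longest coding sequence. Density between classes counts bases outside all exons. Replicate support meant a summit within 200 bp. Starts counted within 1000 bp and small RNA genes (tRNA, snoRNA, snRNA, rRNA, miRNA) within 200 bp. Differences between shares were tested with Fisher's exact test (two-sided, adjusted by Benjamini-Hochberg over 8 tests, or 4 where a single measure applied), and intervals are exact Clopper-Pearson at 95%, covering counting of peaks only. The intron placement and tests were checked on simulated data. Named genes are the hosts of thresholded members (full values for the 12 strongest), the 3 hosts with most peaks, up to 3 hosts per list by signal, and always elt-1, nhr-25, eff-1, ceh-16 and the GATA pair egl-18 and elt-6. Further genes among tied hosts were added after their values were seen. The members and the 11 gene lists (454 entries) were chosen with earlier results of these data known. Alternatives were other matching distances, thresholds, positions, intron definitions, exclusions and each replicate alone. Rank bands and introns of at least 1000 bp were chosen after seeing the data. Tools were scipy 1.17.1, pandas 2.3.3, numpy 2.4.6, matplotlib 3.10.9 and Python 3.11.15.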

Additional observations from a re-analysis of the deposited data

How the results depend on the processing

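Of 106 recomputed values, 70 kept their direction and their side of the threshold or moved by less than the spread between replicates. For the number of intronic peaks, a fixed factor around 8418 took the place of that spread. The 6474 with summits at least 50 bp from an exon therefore count among the 70. The other 36 are given here as differences in percentage points unless another unit is named, intronic minus the class named or first minus later introns. Leaving out peaks within 1000 bp of a start turned the thresholded share to 0.158 against other autosomal and 0.0811 against intergenic peaks and to -0.11 for first introns. The same step ended the calls on support against other autosomal (-1.39) and coding peaks (0.975), moved the signal difference of first introns to 0.762 and left 4543 intronic peaks. At pooled ranks 215 to 5000, 5001 to 15000 and 15001 to 30000, the support differences were 0.694, 0.258 and -0.796 against other autosomal peaks, -1.47, 0.204 and -0.688 against intergenic peaks, and -1.15, 2.04 and 1.12 for first introns. Against coding peaks they were 0.333 and -0.663 in the 2 weaker bands. None of these was called. Summits shared within 50 bp ended the calls on support against coding peaks (0.95) and for first introns (1.29), as did support among the 5000 strongest peaks for first introns (0.597). The stronger 50% of the thresholded list gave 0.084 against coding peaks, not called. Without peaks beside small RNA genes the thresholded share of first introns was called (0.281). In introns of at least 1000 bp the support difference was 2.54 (2.62 with small RNA genes left out as well), neither called, and the signal difference 0.661.

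Counting the first intron of any transcript moved the signal difference to 0.661 and the density ratio of first over later introns to 1.23, and genes with at least 3 introns gave a ratio of 1.22. With one replicate list in place of the pooled list, the thresholded share ran from -0.351 to -0.273 against other autosomal peaks, with the call lost without replicate 2, and from 0.164 to 0.639 against coding peaks, with the call lost without replicate 1. The signal difference ran from -0.246 to -0.148 against other autosomal peaks and from 0.221 to 0.344 for first introns, on the scale of each list. Intronic peaks numbered 5083 to 8301 and the density ratio was 1.15 to 1.19. Support by both replicates could not be computed without a replicate. No paired analysis was possible because the study has a single group. The causes of these changes were not tested.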
